A study of Caenorhabditis elegans with 12 samples.

Results

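The F-box A genes of Caenorhabditis elegans, named fbxa with a number, were followed on 12 Affymetrix arrays of whole wild-type N2 worms. A member was any gene with such a symbol that the array's annotation gave as the single gene of a probe set, and this rule found 171 F-box A genes among 17118 genes with a probe set of their own. Of the members, 135 were annotated as protein coding and 36 as pseudogenes. The worms were fasted males, fed males, fasted hermaphrodites and fed hermaphrodites, with 3 arrays in each group, 1 from each of 3 independent experiments. Fasted worms had spent 48 h on plates with no food, fed worms ate freely, and every sample was taken on day 4 of adulthood. All 4 groups, controls included, were kept on 200 µg/ml of FUdR (5-fluoro-2'-deoxyuridine), an inhibitor of DNA synthesis used so that no progeny hatch. Males had been separated from hermaphrodites by filtration as young adults. Values are log2 signals as deposited. The 40th percentile of all values, log2 6.01, served as the low end of the scale, and a probe set was tested where it lay above that level on at least 3 of the 12 arrays. A call is an adjusted p under 0.05 in limma, after Benjamini-Hochberg adjustment over the 15913 probe sets tested.

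F-box proteins are the subunits with which SCF ubiquitin ligases choose their substrates. The F-box binds a Skp1-related adaptor (SKR in worms), the adaptor binds a cullin, and the cullin holds a RING protein (RBX) that recruits the ubiquitin-conjugating enzyme. F-box A proteins pair an F-box with a FOG-2 homology domain, a family that is greatly expanded in this nematode and holds many recent duplicates and pseudogenes. Its best known relative is fog-2, which lets hermaphrodites make sperm by acting with GLD-1 on the tra-2 mRNA. FBXA-75 and FBXA-158 are known to work with the cullin CUL-6 in the response to intracellular pathogens. The roles of most other F-box A genes are not described here.

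Many F-box A probe sets were dim. Of the 171 members, 100 (58.5%) passed the filter, against 70.6% of all probe sets, and 71 did not. On all 12 arrays 37 members lay above log2 6.01, 17 did so on 1 or 2 arrays, and 54 on none. Of the 4 group means, all lay above that level in 44 members and none in 70. Both male means alone were above it in 15 members, and both hermaphrodite means alone in 9. These 2 counts were not made over all probe sets. Of all probe sets, the mean was above the level for 64% in fasted and 62.6% in fed males. In hermaphrodites it was 56.2% in fasted and 54.7% in fed worms. For members the shares were 48.5% in fasted and 43.9% in fed males, and 40.4% in fasted and 37.4% in fed hermaphrodites. Since 56 of the 100 that passed had at least 1 group mean at or below the level, they are not a neutral sample of the family, and counts over them are descriptions. At the edge of the filter, judged by the third-highest array, fbxa-93, fbxa-97 and fbxa-188 stood at 5.97, 5.98 and 6.0 and were left out, while fbxa-223, fbxa-184 and fbxa-122 stood at 6.04, 6.05 and 6.06 and were kept. Probe sets differ in how brightly they report a transcript, so levels are compared between groups and not between genes. Of the members, 11 rest on _s_at probe sets, which can detect several transcripts of a family, and 6 on _x_at probe sets, whose probes may also match other sequences. Among the genes described below, fbxa-69, fbxa-101, fbxa-112, fbxa-122, fbxa-123, fbxa-156, fbxa-206 and fbxa-215 are of the first type, and fbxa-24, fbxa-60 and fbxa-67 of the second. What else these probe sets detect was not tested.

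Sex was the condition in which the members differed most often, as it was for all probe sets tested. Of all probe sets, 70.7% were called between the sexes in fasted and 74.8% in fed worms. With fasting, 27.3% were called in males and 11.4% in hermaphrodites. The clearest genes lower in males were fbxa-215, fbxa-107, fbxa-210 and fbxa-101, whose probe sets were bright in hermaphrodites. The log2 signal of fbxa-215 was 7.65, 7.44 and 7.39 in fasted males and 7.32, 7.28 and 7.48 in fed males, against 11.68, 11.58 and 11.61 in fasted hermaphrodites and 11.64, 11.71 and 11.83 in fed hermaphrodites. No male array came near a hermaphrodite array, and within each sex the fasted and fed arrays overlapped. The male minus hermaphrodite difference of fbxa-215 was -4.13 ± 0.12 in fasted worms (SE; adjusted p = 3.82e-11) and -4.37 ± 0.12 in fed worms (SE; adjusted p = 1.87e-11). Its _s_at probe set is annotated to fbxa-215 alone, on chromosome IV.

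On chromosome V, fbxa-107 measured 7.79, 7.61 and 7.89 in fasted males and 7.21, 7.91 and 7.51 in fed males, against 10.94, 10.67 and 10.72 in fasted hermaphrodites and 10.69, 10.27 and 10.37 in fed hermaphrodites. Its difference was -3.01 ± 0.18 in fasted worms (SE; adjusted p = 2.17e-08) and -2.90 ± 0.18 in fed worms (SE; adjusted p = 2.48e-08). In the adjacent gene fbxa-210, the arrays gave 9.22, 9.29 and 9.17 in fasted males and 8.37, 8.47 and 8.05 in fed males, against 11.09, 11.15 and 11.09 in fasted hermaphrodites and 10.86, 10.65 and 10.71 in fed hermaphrodites. Both genes were bright in every hermaphrodite and lower, but still above the 40th percentile, in every male. The difference of fbxa-210 was -1.89 ± 0.12 in fasted worms (SE; adjusted p = 4.62e-08) and -2.44 ± 0.12 in fed worms (SE; adjusted p = 3.96e-09). On chromosome I, fbxa-101 gave 8.61, 8.64 and 8.74 in fasted males and 7.90, 7.52 and 7.95 in fed males, against 10.58, 10.53 and 10.78 in fasted hermaphrodites and 10.08, 9.94 and 10.26 in fed hermaphrodites. Male and hermaphrodite arrays did not overlap in any of these genes, and the difference of fbxa-101 was -1.97 ± 0.14 in fasted worms (SE; adjusted p = 1.18e-07) and -2.30 ± 0.14 in fed worms (SE; adjusted p = 2.37e-08).

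A second set lay below the 40th percentile in males and above it in hermaphrodites. Signal of fbxa-83 (chromosome IV) was 5.47, 3.80 and 4.49 in fasted males and 4.95, 4.34 and 5.0 in fed males, against 8.08, 8.69 and 8.43 in fasted hermaphrodites and 7.66, 7.73 and 7.78 in fed hermaphrodites, and the difference was -3.82 in fasted and -2.96 in fed worms. For fbxa-120 (chromosome X) the values were 5.42, 4.88 and 5.90 in fasted males and 5.46, 4.39 and 5.61 in fed males, against 8.41, 8.58 and 8.41 in fasted hermaphrodites and 7.93, 8.16 and 7.82 in fed hermaphrodites, and the difference was -3.07 in fasted and -2.82 in fed worms. The X-linked gene fbxa-170 gave 4.55, 4.97 and 5.46 in fasted males and 5.13, 2.85 and 5.18 in fed males, against 8.34, 7.93 and 7.99 in fasted hermaphrodites and 7.74, 8.14 and 8.09 in fed hermaphrodites, with a difference of -3.09 in fasted and -3.61 in fed worms. In all 3 genes every male array was below log2 6.01 and every hermaphrodite array above it, so the size of the difference rests on values near the floor of the array. With the 40th percentile of the signal added before taking logs, the differences shrank to -2.16 in fasted and -1.58 in fed worms for fbxa-83, -1.96 in fasted and -1.63 in fed worms for fbxa-120 and -1.79 in fasted and -1.83 in fed worms for fbxa-170, and all stayed called. The remaining genes of the 10 largest falls in fed males were fbxa-206 (-2.58), fbxa-153 (-2.40) and fbxa-145 (-2.17). With the added signal these became -1.39, -1.57 and -1.26.

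In the other direction, fbxa-14, fbxa-202, fbxa-125 and fbxa-196 were higher in males. On chromosome III, fbxa-14 gave 9.08, 9.18 and 9.45 in fasted males and 9.41, 9.35 and 9.15 in fed males, against 7.37, 7.20 and 6.71 in fasted hermaphrodites and 7.09, 7.30 and 7.31 in fed hermaphrodites. It lay above the 40th percentile in both sexes, its arrays did not overlap between them, and the difference was 2.14 ± 0.19 in fasted worms (SE; adjusted p = 5.07e-07) and 2.07 ± 0.19 in fed worms (SE; adjusted p = 5.68e-07). On chromosome V, fbxa-202 gave 9.43, 9.92 and 9.66 in fasted males and 9.21, 9.40 and 8.92 in fed males, against 5.17, 5.01 and 2.36 in fasted hermaphrodites and 5.14, 5.65 and 4.40 in fed hermaphrodites. Thus fbxa-202 lay above the 40th percentile on all 6 male arrays and below it on all 6 hermaphrodite arrays, with a difference of 5.49 ± 0.59 in fasted worms (SE; adjusted p = 3.88e-06) and 4.11 ± 0.59 in fed worms (SE; adjusted p = 4.27e-05). On chromosome I, fbxa-125 gave 8.68, 8.69 and 8.37 in fasted males and 8.06, 8.52 and 7.21 in fed males, against 4.73, 3.80 and 5.11 in fasted hermaphrodites and 4.76, 2.98 and 4.82 in fed hermaphrodites. Its difference was 4.03 ± 0.51 in fasted worms (SE; adjusted p = 1.46e-05) and 3.75 ± 0.51 in fed worms (SE; adjusted p = 2.49e-05). The log2 signal of fbxa-196 was 7.98, 7.78 and 7.55 in fasted males and 7.55, 7.89 and 7.28 in fed males, against 4.05, 4.49 and 4.39 in fasted hermaphrodites and 4.38, 4.98 and 4.29 in fed hermaphrodites. Like fbxa-202, fbxa-125 and fbxa-196 lay above the 40th percentile on every male array and below it on every hermaphrodite array.

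The largest fitted difference belonged to fbxa-224 on chromosome II, which gave 7.21, 6.70 and 6.08 in fasted males and 6.52, 6.64 and 6.28 in fed males, against 1.77, 0.65 and 0.80 in fasted hermaphrodites and 1.79, 2.30 and 0.40 in fed hermaphrodites. The hermaphrodite arrays were near the bottom of the scale, and the difference of 5.59 in fasted and 4.99 in fed worms rests on values at that end. With the 40th percentile of the signal added before taking logs it was 1.33 in fasted and 1.18 in fed worms. For fbxa-202 the same step gave 3.32 in fasted and 2.69 in fed worms, for fbxa-125 2.33 in fasted and 1.88 in fed worms, and for fbxa-196 1.74 in fasted and 1.53 in fed worms. The same holds for fbxa-157 (2.98 in fasted and 2.73 in fed worms, then 1.58 in fasted and 1.53 in fed worms) and fbxa-164 (2.08 in fasted and 2.68 in fed worms, then 1.35 in fasted and 1.23 in fed worms). Among annotated pseudogenes, fbxa-178 (3.35 in fasted and 3.03 in fed worms) and fbxa-180 (2.52 in fasted and 3.57 in fed worms) were higher in males, and became 1.32 in fasted and 1.21 in fed worms for fbxa-178 and 1.03 in fasted and 0.71 in fed worms for fbxa-180. The pseudogene fbxa-223 was higher in males by 3.71 ± 1.07 in fasted worms (SE; adjusted p = 0.00758) and by 2.99 ± 1.07 in fed worms (SE; adjusted p = 0.0225), or 0.93 in fasted and 0.57 in fed worms with the added signal. The fasted call was kept under every alternative, at 2.44 without fasted hermaphrodite replicate 1. The fed call was lost after quantile normalization (adjusted p = 0.0614) and after median centring (0.0524). It was lost too without fed hermaphrodite replicate 2 (0.0929), fed male replicate 1 (0.0782) or fed male replicate 2 (0.0503).

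**Figure D1:**
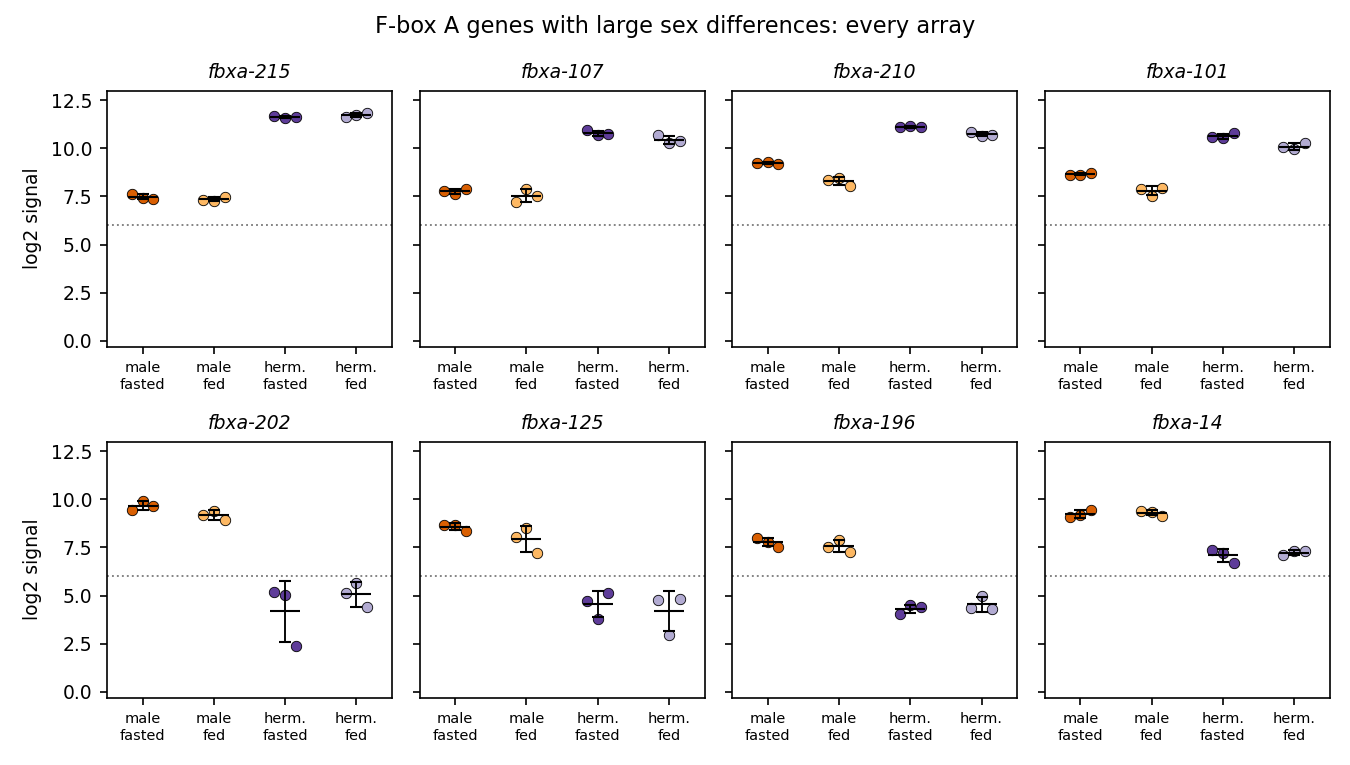
Log2 signal (vertical axis) of 8 F-box A genes on each array, by group along the horizontal axis; points are arrays, lines the mean, bars the SD of 3 arrays, and the dotted line the 40th percentile of all values, log2 6.01. fbxa-215, fbxa-107, fbxa-210 and fbxa-101 are lower in both male groups, and fbxa-202, fbxa-125 and fbxa-196 cross the dotted line between the sexes.

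Counted over the family, 40 members were higher and 20 lower in fasted males than in fasted hermaphrodites, of 100 tested. The background over all probe sets tested was 38.0% higher and 32.7% lower (70.7% called). In fed worms 42 were higher and 30 lower in males, beside 38.9% and 35.9% of all probe sets (74.8% called). Called in either direction were 60 members in fasted worms, a share below the 70.7% of all probe sets. In fed worms 72 were called, near the 74.8% of all probe sets. With no filter, 44 of the 171 members were called higher and 26 lower in fasted males, against backgrounds of 28.0% and 23.8%. In fed males 47 were higher and 34 lower, against 29.1% and 25.9%. As shares of the 171 members, each of these counts was below its background. The median difference of the 100 tested members was 0.51 in fasted and 0.57 in fed worms, beside 0.12 and 0.13 over all probe sets tested. The fasted and fed comparisons use different arrays, and 33 members were higher in males in both, which is 82.5% of the fasted and 78.6% of the fed calls. Lower in males in both were 19 members, 95% of the fasted and 63.3% of the fed calls, and none was called in opposite directions. The same overlap was not counted over all probe sets, most of which were called in each comparison. It is therefore not given as a trait of the family.

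The split between the directions depended on how arrays were scaled. Median centring of each array gave 20 higher and 36 lower members in fasted males and 25 higher and 37 lower in fed males. Quantile normalization gave 28 higher and 33 lower in fasted, and 30 and 36 in fed males. The median over all probe sets tested moved with it, to -0.50 (fasted) and -0.41 (fed) under median centring and to -0.12 and -0.07 under quantile normalization. The family's median was -0.12 and 0.03 under median centring and -0.08 and 0.16 under quantile normalization. No direction for the family as a whole is therefore given. All of the genes described singly above kept their direction under both scalings.

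**Figure D2:**
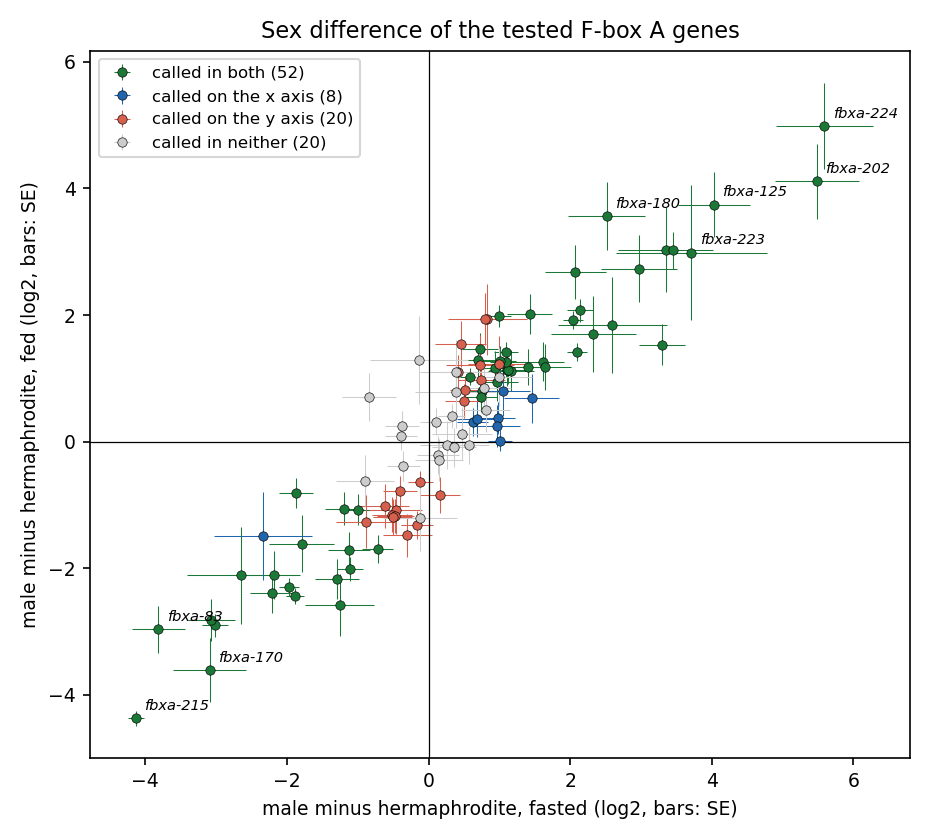
Male minus hermaphrodite difference in log2 signal of each tested F-box A gene, in fasted worms (horizontal axis) and in fed worms (vertical axis), with bars for the SE. Of these genes 40 are called higher and 20 lower in fasted males, and 42 higher and 30 lower in fed males.

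Cells of the 2 sexes differ in kind and number, and in whole worms fewer cells of a type and less RNA per cell cannot be told apart. Yolk and oocyte markers summed to log2 10.78 to 12.05 in fasted and 10.91 to 11.28 in fed males, against 16.59 to 16.63 in fasted and 16.87 to 16.98 in fed hermaphrodites. All 7 of them were lower in males. Sperm markers summed to 15.91 to 16.31 in fasted and 16.06 to 16.55 in fed males, against 9.55 to 10.70 in fasted and 9.71 to 12.44 in fed hermaphrodites. All 6 were higher in males, and spe-9 and spe-11 had hermaphrodite means below the 40th percentile. The 4 markers of male sensory neurons had means below it in hermaphrodites, and klp-6 in males too. They summed to 10.21 to 10.64 in fasted and 10.26 to 10.40 in fed males, against 6.28 to 6.70 in fasted and 6.42 to 6.48 in fed hermaphrodites. None of these markers read exactly 0 on any array. The part of these cell types in the sex differences of F-box A genes was not tested.

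Members lie on every autosome and the X chromosome, 74 on V, 45 on III, 19 on II, 14 on X, 13 on I and 6 on IV. Chromosome III held 16 members higher and 1 lower in fasted males, and 12 higher and 3 lower in fed males, of 27 tested. On chromosome II, 7 were higher and 1 lower in fasted males and 9 higher and 2 lower in fed males, of 14 tested. On chromosome I, 1 was higher and 3 lower in fasted males and 1 higher and 5 lower in fed males, of 9 tested. Chromosome V was mixed, with 16 higher and 11 lower in fasted and 20 higher and 16 lower in fed males, of 42 tested. Over all probe sets of each chromosome, the shares higher and lower in fasted males were 28.9% and 39.2% on III, 37.4% and 35.9% on II, 31.5% and 41.5% on I, and 45.3% and 26.1% on V. In fed males they were 30.5% and 45.1% on III, 37.4% and 39.8% on II, 30.2% and 47.5% on I, and 47.4% and 29.2% on V. Median centring changed the count on chromosome III to 5 higher and 6 lower in fasted males and 6 and 6 in fed males, and on V to 10 higher and 16 lower in fasted males and 13 and 16 in fed males. On II it gave 4 higher and 2 lower (fasted) and 5 and 3 (fed), and on I 1 higher and 5 lower (fasted) and 1 and 7 (fed).

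**Figure D3:**
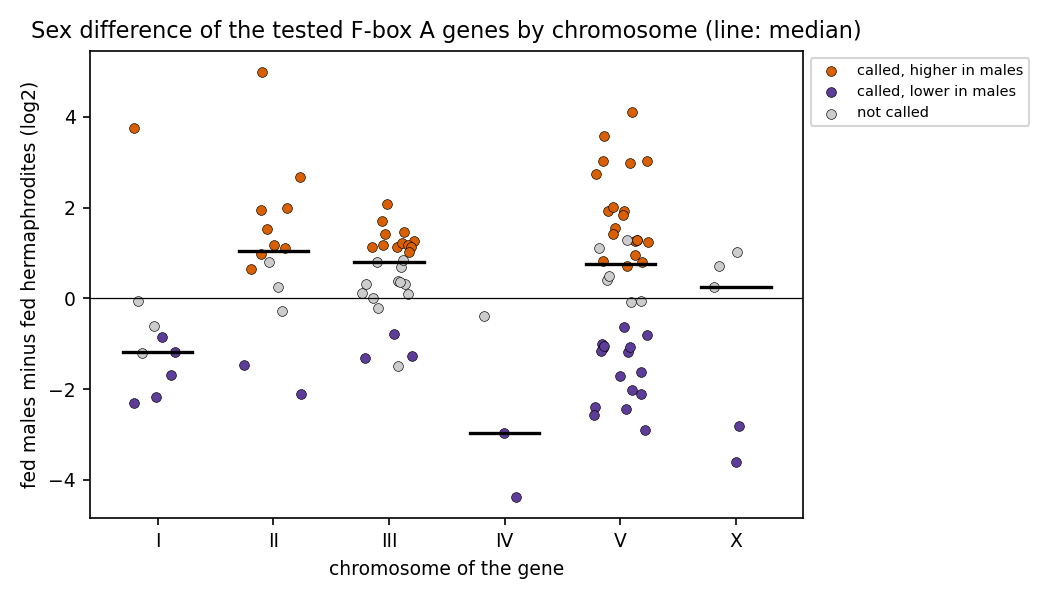
Male minus hermaphrodite difference in log2 signal of each tested F-box A gene in fed worms (vertical axis), by chromosome (horizontal axis), with called genes coloured by direction. Chromosome III holds 12 genes called higher and 3 lower in males, chromosome I holds 1 higher and 5 lower, and chromosome V has both.

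F-box A genes often sit side by side. Of the 222 in the gene table, 135 stood in 41 runs of at least 2 neighbours, the longest of 10, and 94 of those had a probe set of their own here. These runs hold 94 adjacent pairs, in 21 of which both genes were tested. Both genes were called in fed worms in 9 pairs, and in all 9 both went the same way, 3 pairs higher and 6 lower in males. Some of these pairs share a gene, and adjacent genes outside the family were not counted. It is therefore not known whether such agreement is particular to F-box A genes. The fed call of fbxa-146, paired with fbxa-24, was lost after quantile normalization (adjusted p = 0.192) and median centring (0.146). The genes named for their place in a run were chosen after their values were seen. In a run on chromosome V, fbxa-107, fbxa-210 and fbxa-211 were all lower in males. The log2 signal of fbxa-211 was 5.72, 6.03 and 6.09 in fasted males and 5.49, 5.77 and 6.26 in fed males, against 6.82, 7.0 and 7.02 in fasted hermaphrodites and 6.76, 7.08 and 6.90 in fed hermaphrodites, a difference of -1.0 in fasted and -1.08 in fed worms. Another run on V held fbxa-191, fbxa-192, fbxa-193, fbxa-129 and fbxa-108, of which 4 were called lower in fed males, at -1.72 for fbxa-192, -1.61 for fbxa-193, -1.19 for fbxa-129 and -1.08 for fbxa-108. Without fed male replicate 2 the value of fbxa-193 was -1.03, and with the 40th percentile of the signal added -0.64. The call of fbxa-108 was lost without fed hermaphrodite replicate 1 (adjusted p = 0.0598) or fed male replicate 3 (0.0929). On chromosome II the neighbours fbxa-164 and fbxa-165 were both higher in fed males, at 2.68 and 1.94. Neighbouring F-box A genes can be similar in sequence, and whether their probe sets detect each other's transcripts was not tested.

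In males, 48 h without food went with clear changes in single F-box A genes. The largest rise was in fbxa-24 (chromosome II), whose _x_at probe set gave 8.93, 9.23 and 10.16 in fasted males, against 7.10, 6.91 and 7.07 in fed males. Each fasted array was above each fed array, by more than the whole range within either group, and the change was 2.41 ± 0.32 (SE; adjusted p = 2.06e-04). The neighbouring gene fbxa-146 gave 7.17, 7.17 and 6.70 in fasted males, against 5.36, 4.96 and 5.65 in fed males. It crossed the 40th percentile and rose by 1.69 ± 0.36 (SE; adjusted p = 0.00427). Adding the 40th percentile of the signal reduced this to 0.89. Rises were also seen in fbxa-210 and fbxa-101, described above as lower in males than in hermaphrodites. fbxa-210 gave 9.22, 9.29 and 9.17 in fasted males, against 8.37, 8.47 and 8.05 in fed males, a change of 0.93 ± 0.12 (SE; adjusted p = 2.17e-04). fbxa-101 gave 8.61, 8.64 and 8.74 in fasted males, against 7.90, 7.52 and 7.95 in fed males, a change of 0.87 ± 0.14 (SE; adjusted p = 8.89e-04). In both genes the fasted male arrays lay above every fed male array and below every hermaphrodite array.

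On chromosome I, the run of annotated pseudogenes fbxa-124, fbxa-122 and fbxa-123 was higher in fasted males in all 3 members. For fbxa-123 the arrays gave 7.53, 7.87 and 7.55 in fasted males, against 6.46, 6.04 and 6.97 in fed males, and the change was 1.16 ± 0.26 (SE; adjusted p = 0.00614). Signal of fbxa-122 was 5.54, 6.13 and 5.87 in fasted males, against 4.17, 2.96 and 5.30 in fed males, near the low end of the scale in both groups, with a change of 1.70 ± 0.52 (SE; adjusted p = 0.0289). That of fbxa-124, chosen for its neighbours, was 6.92, 6.60 and 6.54 in fasted males, against 5.86, 5.37 and 6.26 in fed males, a change of 0.86 ± 0.28 (SE; adjusted p = 0.0378). The rise of fbxa-122 was 0.52 with the 40th percentile of the signal added and 1.11 without fed male replicate 2 (adjusted p = 0.101), and that of fbxa-123 was 0.77. The call of fbxa-123 was kept under every alternative, and those of fbxa-122 and fbxa-124 were lost in 4 and 5 of the 12 leave-one-out fits (adjusted p up to 0.101 for fbxa-122 and 0.145 for fbxa-124). Also higher in fasted males were fbxa-184 at 1.5 ± 0.34 (SE; adjusted p = 0.00658), fbxa-6 at 1.10 ± 0.30 (SE; adjusted p = 0.0169), fbxa-94 at 1.01 ± 0.35 (SE; adjusted p = 0.0499), fbxa-114 at 1.01 ± 0.28 (SE; adjusted p = 0.0187) and fbxa-67 at 0.90 ± 0.25 (SE; adjusted p = 0.0172). With the added signal the rises were 0.50 in fbxa-184, 0.60 in fbxa-6 and 0.50 in fbxa-94. Further calls with a smaller rise were fbxa-106 (0.78), fbxa-197 (0.66) and fbxa-69 (0.48), all chosen after their values were seen. Of the 15 rises (19% of all probe sets tested rose), 7 were kept under every alternative, those of fbxa-24, fbxa-146, fbxa-184, fbxa-123, fbxa-210, fbxa-101 and fbxa-106. In the leave-one-out fits the adjusted p reached 0.073 for fbxa-6, 0.176 for fbxa-94, 0.0751 for fbxa-114, 0.0696 for fbxa-67, 0.0666 for fbxa-197 and 0.081 for fbxa-69.

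Other members were lower in fasted males. On the arrays fbxa-128 was 9.04, 8.89 and 9.06 in fasted males, against 10.05, 9.88 and 9.83 in fed males, well above the low end of the scale, and it fell by 0.92 ± 0.14 (SE; adjusted p = 5.27e-04). The values of fbxa-141 were 5.6, 4.25 and 5.27 in fasted males, against 6.64, 7.05 and 7.11 in fed males, so that it lay below the 40th percentile in fasted and above it in fed males. Its change was -1.89 ± 0.38 (SE; adjusted p = 0.00308), or -0.92 with the 40th percentile of the signal added. The others were fbxa-88 at -2.13 ± 0.69 (SE; adjusted p = 0.0381), fbxa-18 at -1.91 ± 0.56 (SE; adjusted p = 0.0233), fbxa-72 at -1.06 ± 0.36 (SE; adjusted p = 0.0454) and fbxa-74 at -0.78 ± 0.27 (SE; adjusted p = 0.0485). With the same step fbxa-88 was at -0.78, fbxa-18 at -0.81, and fbxa-72 at -0.65. Fasted male replicate 3 held the lowest value of fbxa-88, 2.41 against 5.48 and 5.57 in the other fasted males. Without that array the change was -1.09 (adjusted p = 0.0666). The calls of fbxa-128 and fbxa-141 were kept under every alternative, while the adjusted p reached 0.0892 for fbxa-88, 0.0865 for fbxa-18, 0.172 for fbxa-72 and 0.173 for fbxa-74 in leave-one-out fits.

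**Figure D4:**
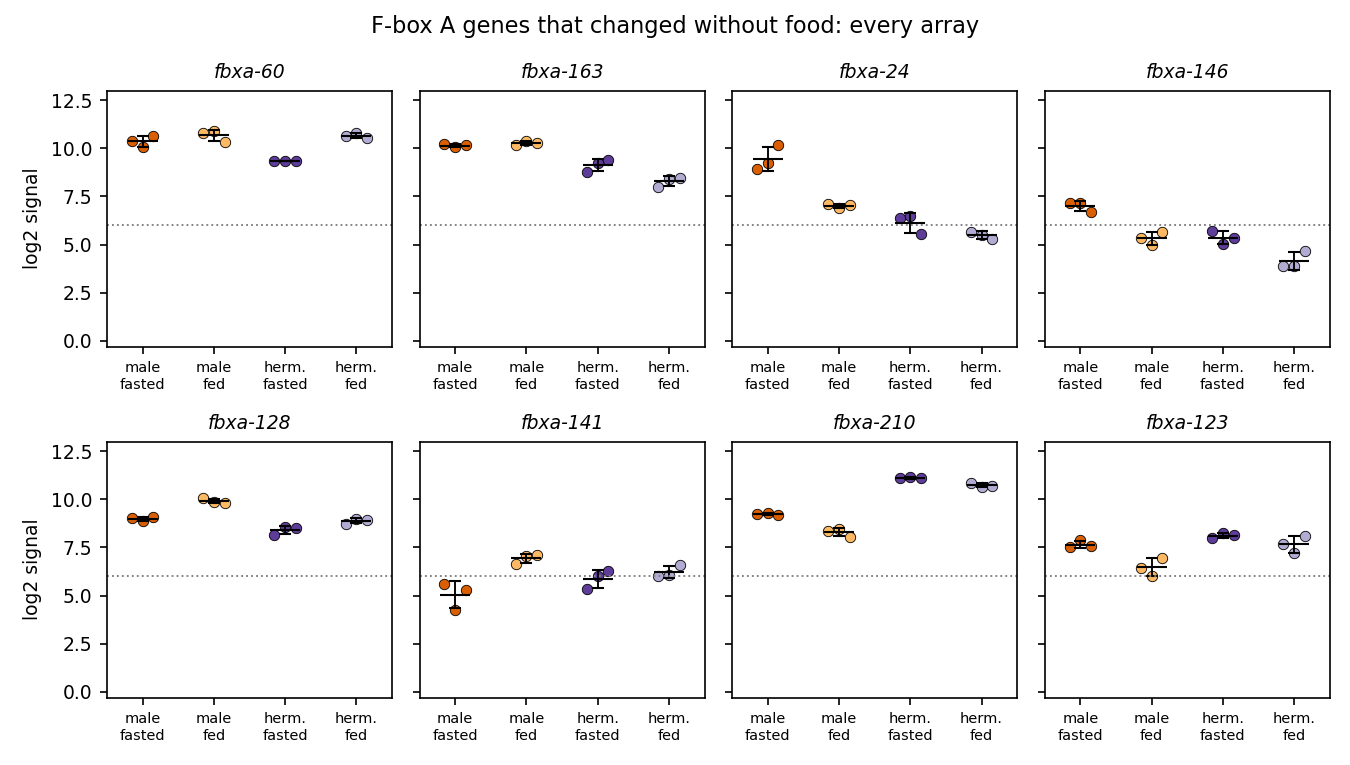
Log2 signal (vertical axis) of 8 F-box A genes on each array, by group along the horizontal axis; points are arrays, lines the mean, bars the SD of 3 arrays, and the dotted line the 40th percentile of all values, log2 6.01. fbxa-24, fbxa-146, fbxa-210 and fbxa-123 are higher in fasted than in fed males, fbxa-128 and fbxa-141 are lower, and fbxa-60 is lower and fbxa-163 higher in fasted than in fed hermaphrodites.

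In hermaphrodites fewer members were called without food than in males, as were fewer of all probe sets (11.4% against 27.3%). The most marked was fbxa-60 (chromosome III), at 9.36, 9.35 and 9.36 in fasted hermaphrodites, against 10.64, 10.79 and 10.52 in fed hermaphrodites. The 3 fasted arrays nearly coincided and lay below every fed array, and fbxa-60 fell by 1.30 ± 0.17 (SE; adjusted p = 2.41e-04). Its probe set is an _x_at set. The same gene was 10.37, 10.09 and 10.64 in fasted males, against 10.79, 10.88 and 10.32 in fed males, where the groups overlapped and the change was -0.30 ± 0.17 (SE; adjusted p = 0.211). On chromosome II, fbxa-163 was 8.78, 9.23 and 9.41 in fasted hermaphrodites, against 7.99, 8.42 and 8.46 in fed hermaphrodites, and rose by 0.85 ± 0.17 (SE; adjusted p = 0.00648). It was 10.21, 10.06 and 10.15 in fasted males, against 10.17, 10.35 and 10.30 in fed males, again with overlap, and the change was -0.14 ± 0.17 (SE; adjusted p = 0.622). Both calls in hermaphrodites were kept under every alternative that tested them.

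The other calls in fasted hermaphrodites were each lost when some single array was left out. The pseudogene fbxa-180 was 3.93, 3.61 and 5.24 in fasted hermaphrodites, against 2.85, 1.89 and 1.32 in fed hermaphrodites, below the 40th percentile throughout, with a change of 2.24 ± 0.54 (SE; adjusted p = 0.0182). It was 0.31 (adjusted p = 0.158) with the 40th percentile of the signal added. The call was lost without fasted hermaphrodite replicate 3 (adjusted p = 0.0834) or fed hermaphrodite replicate 3 (0.0536). For fbxa-146 the arrays gave 5.71, 5.03 and 5.34 in fasted hermaphrodites, against 3.89, 3.88 and 4.67 in fed hermaphrodites, a change of 1.21 ± 0.36 (SE; adjusted p = 0.0471). That call was lost in 10 of 12 leave-one-out fits (adjusted p = 0.0526 to 0.135), and the change was 0.36 (adjusted p = 0.11) with the 40th percentile of the signal added. The change in fbxa-101 was 0.54 ± 0.14 (SE; adjusted p = 0.0305), in fbxa-156 -0.53 ± 0.14 (SE; adjusted p = 0.0299), and in fbxa-51 -1.04 ± 0.30 (SE; adjusted p = 0.0448), or -0.67 without fasted hermaphrodite replicate 2 (adjusted p = 0.141) and -0.58 with the added signal. In fbxa-43 it was -0.77 ± 0.22 (SE; adjusted p = 0.0434) and in fbxa-128 -0.48 ± 0.14 (SE; adjusted p = 0.045). Over the leave-one-out fits that lost the call, the adjusted p was 0.0533 to 0.116 for fbxa-101, 0.0631 to 0.116 for fbxa-156, 0.0567 to 0.141 for fbxa-51, 0.051 to 0.15 for fbxa-43 and 0.0514 to 0.134 for fbxa-128.

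Counted over the family, 15 members were higher and 6 lower in fasted than in fed males, of 100 tested, beside 19% and 8.31% of all probe sets (27.3% called). In hermaphrodites 4 were higher and 5 lower, beside 5.72% and 5.69% (11.4% called), and 20 had an unadjusted p under 0.05. Each share of members called higher or lower was below its background. With no filter the 171 members gave 17 higher and 5 lower in males, against 12.4% and 5.77%. In hermaphrodites they gave 4 higher and 2 lower, against 3.57% and 3.78%. As shares of the 171 members, these counts too were below their backgrounds. The median change of the tested members was 0.22 in males and 0.08 in hermaphrodites, beside 0.23 and 0.09 over all probe sets tested. Median centring gave 7 higher and 8 lower members in males and 2 and 5 in hermaphrodites, and quantile normalization 12 and 10 in males and 2 and 1 in hermaphrodites. The fasting comparisons of the sexes use different arrays. Higher in both were fbxa-101 and fbxa-146, which is 13.3% of the male and 50% of the hermaphrodite calls, and lower in both was fbxa-128, 16.7% of the male and 20% of the hermaphrodite calls. The hermaphrodite call of each of these 3 genes was among those lost when single arrays were left out. For fasting too, the overlap was not counted over all probe sets.

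Markers of intestine summed to log2 15.37 to 15.93 in fasted and 15.94 to 16.31 in fed males, and to 12.93 to 13.04 in fasted and 14.92 to 15.27 in fed hermaphrodites. Of the 6, 3 fell in fasted males and 5 in fasted hermaphrodites. Body wall muscle markers summed to 12.67 to 13 in fasted and 13.96 to 14.24 in fed males, and to 11.80 to 11.96 in fasted and 12.21 to 12.59 in fed hermaphrodites. Of the 4, all fell in fasted males and 2 in fasted hermaphrodites. The part of these tissues in the fasting changes of F-box A genes was not tested.

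The change with fasting was then compared between the sexes, as the change in males minus that in hermaphrodites. The background was 3.82% of probe sets higher and 1.46% lower (5.28% called), and of the 100 members tested 2 were higher and 1 lower, with 13 at an unadjusted p under 0.05. With no filter 1 of the 171 members was higher and 2 lower, against 2.19% and 0.887%. In fbxa-24 the change was 2.41 in males and 0.65 in hermaphrodites, a difference of 1.77 ± 0.45 (SE; adjusted p = 0.0438). In fbxa-60 it was -0.30 in males and -1.30 in hermaphrodites, a difference of 0.99 ± 0.24 (SE; adjusted p = 0.0337). In fbxa-163 it was -0.14 in males and 0.85 in hermaphrodites, a difference of -0.99 ± 0.25 (SE; adjusted p = 0.0388). Each of the 3 calls was lost when some single array was left out, in 10 of 12 such fits for fbxa-24 (adjusted p = 0.0561 to 0.0888), 7 for fbxa-60 (0.0522 to 0.0797) and 10 for fbxa-163 (0.0541 to 0.0855). For the other members, a call in one sex and none in the other does not show that the sexes differed.

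**Figure D5:**
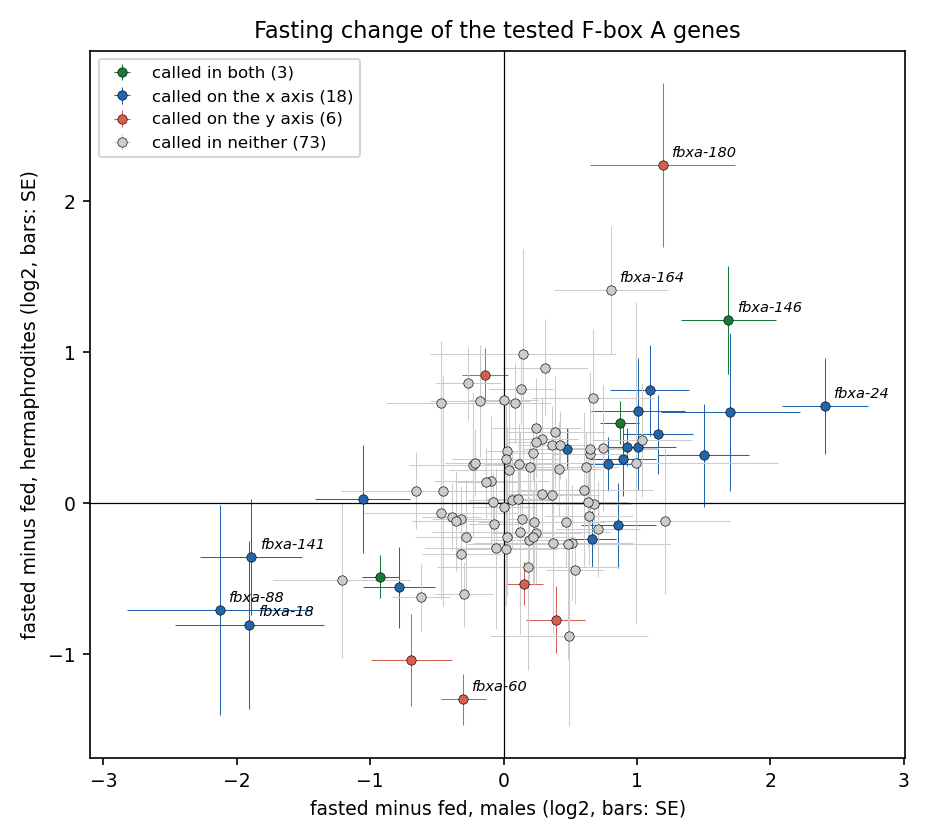
Fasted minus fed change in log2 signal of each tested F-box A gene, in males (horizontal axis) and in hermaphrodites (vertical axis), with bars for the SE. Of the tested genes 73 are called in neither sex; 15 are called higher and 6 lower in fasted males, and 4 higher and 5 lower in fasted hermaphrodites.

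Some tested members varied little. The range of the 4 group means was 0.29 in fbxa-166, 0.30 in fbxa-112 and 0.36 in fbxa-207, the smallest among the members tested. The largest were 5.59 in fbxa-224, 5.49 in fbxa-202 and 4.76 in fbxa-180. Called in no comparison were 16 of the 100 tested. The matching share of all probe sets was not counted, so this is not given as a trait of the family. FBXA-158 and FBXA-75, the members with a known place in the intracellular pathogen response, did not pass the filter. The log2 signal of fbxa-158 was 3.63, 3.33 and 3.25 in fasted males and 5.54, 4.52 and 5.36 in fed males, against 5.48, 6.44 and 5.44 in fasted hermaphrodites and 4.54, 5.17 and 5.14 in fed hermaphrodites. The 3 fasted male arrays were the lowest, but 11 of the 12 values lay below the 40th percentile. That of fbxa-75 was 4.18, 4.20 and 0.58 in fasted males and 3.12, 2.93 and 2.69 in fed males, against 3.42, 4.48 and 4.54 in fasted hermaphrodites and 2.90, 2.2 and 0.82 in fed hermaphrodites, below that level on every array. The fit with no filter did test these genes. There fbxa-158 differed between males and hermaphrodites by -2.38 in fasted worms (adjusted p = 5.61e-04) and by 0.19 in fed worms (adjusted p = 0.756). Its change with fasting in that fit was -1.74 in males (adjusted p = 0.0171) and 0.84 in hermaphrodites (adjusted p = 0.344), a difference of -2.57 (adjusted p = 0.0497). For fbxa-75 the adjusted p was 0.21 or more in all 5 comparisons. The size of these differences rests on values below the 40th percentile.

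Relatives and partners of the family were set beside it. fog-2, the hermaphrodite spermatogenesis gene, gave 8.44, 8.67 and 8.13 in fasted males and 7.51, 7.93 and 7.58 in fed males, against 10.42, 10.30 and 10.21 in fasted hermaphrodites and 10.20, 10.35 and 9.998 in fed hermaphrodites. It was lower in males by every array, with a difference of -1.90 in fasted and -2.51 in fed worms, and rose in fasted males by 0.74 ± 0.17 (SE; adjusted p = 0.00638). The related gene ftr-1 was lower in males (-0.63 in fasted and -1.33 in fed worms) and rose in fasted males by 1.02 ± 0.17 (SE; adjusted p = 8.04e-04). In hermaphrodites the changes were 0.13 ± 0.17 (SE; adjusted p = 0.7) for fog-2 and 0.32 ± 0.17 (SE; adjusted p = 0.265) for ftr-1.

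Among the Skp1-related adaptors, skr-5 gave 9.05, 8.85 and 8.90 in fasted males, against 7.26, 6.70 and 7.33 in fed males, and 8.43, 7.99 and 7.89 in fasted hermaphrodites, against 6.84, 7.45 and 7.22 in fed hermaphrodites. It rose by 1.84 ± 0.22 (SE; adjusted p = 1.02e-04) in males and by 0.93 ± 0.22 (SE; adjusted p = 0.0165) in hermaphrodites, with no overlap between fasted and fed arrays in either sex. In hermaphrodites the call of skr-5 was lost without fasted replicate 1 (adjusted p = 0.0611) or fed replicate 1 (0.0719). skr-2 rose by 0.85 ± 0.09 (SE; adjusted p = 3.64e-05) in males and by 0.44 ± 0.09 (SE; adjusted p = 0.00729) in hermaphrodites. The cullin gene cul-1 rose in fasted males by 0.63 ± 0.15 (SE; adjusted p = 0.00896) and skr-1 by 0.48 ± 0.12 (SE; adjusted p = 0.00941), calls that median centring removed (adjusted p = 0.0597 for cul-1 and 0.179 for skr-1). Changes of cul-6 were -0.09 ± 0.18 (SE; adjusted p = 0.769) in males and -0.05 ± 0.18 (SE; adjusted p = 0.899) in hermaphrodites. Between the sexes, rbx-1 (-1.57 in fasted and -1.65 in fed worms), rbx-2 (-1.61 in fasted and -1.74 in fed worms) and skr-2 (-1.10 in fasted and -1.51 in fed worms) were lower in males. Higher in males were skr-3 (0.97 in fasted and 1.08 in fed worms) and skr-4 (1.36 in fasted and 1.48 in fed worms). Between the sexes, 3 adaptors were higher and 12 lower in fasted males, and 2 higher and 13 lower in fed males. Under median centring these counts became 1 and 14 in fasted and 2 and 15 in fed males. With fasting, 5 of the 18 adaptors tested were higher and 1 lower in males, and 2 were higher in hermaphrodites. Of 18 measured genes of the SCF core and known adaptors, 6 were higher in fasted males and 1 in fasted hermaphrodites, while 14 were lower in fasted males and 14 in fed males than in hermaphrodites. The F-box gene mfb-1 was in that list, and rose by 1.95 ± 0.22 (SE; adjusted p = 6.24e-05) in males and 1.04 ± 0.22 (SE; adjusted p = 0.00884) in hermaphrodites. Beside these adaptor and SCF counts, 19% of all probe sets tested rose and 8.31% fell in fasted males, and 5.72% rose in fasted hermaphrodites. Between the sexes, 38.0% of all probe sets tested were higher and 32.7% lower in fasted males, and 38.9% higher and 35.9% lower in fed males.

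The F-box B and F-box C families, which pair the F-box with other domains, were counted in the same way. Of 49 F-box B genes tested, 2 were higher and 44 lower in fasted males, and 2 higher and 42 lower in fed males, with a median difference of -3.69 in fasted and -2.86 in fed worms. The split was 2 higher and 47 lower in fasted and in fed males under median centring, and 2 and 46 in fasted and 2 and 47 in fed males under quantile normalization. Of 26 F-box C genes tested, 3 were higher and 19 lower in fasted males and 2 higher and 15 lower in fed males. Under median centring these were 1 and 20 in fasted and 1 and 18 in fed males. The background of these sex counts is 38.0% higher and 32.7% lower in fasted males and 38.9% and 35.9% in fed males. The F-box A genes, at 40 higher and 20 lower in fasted and 42 higher and 30 lower in fed males, were the only one of the 3 families with more members higher than lower on the deposited scale, and under median centring and quantile normalization it too had more members lower. No test of the difference between families was made. With fasting, 4 F-box B genes were higher and 3 lower in males, and 3 and 4 under median centring, beside 19% and 8.31% of all probe sets. Of the F-box C genes, 4 were higher in fasted males and 1 in fasted hermaphrodites on the deposited scale, calls that both median centring and quantile normalization removed. In the list for the intracellular pathogen response, 4 of 7 tested genes were higher in males in fasted and in fed worms, which under median centring became 1 higher and 2 lower in fasted and 3 and 3 in fed males.

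Of the 36 pseudogenes 19 were tested, and 7 were higher and 4 lower in fasted males and 5 higher and 7 lower in fed males than in hermaphrodites. In fasted against fed worms, 4 pseudogenes were higher in males and 2 in hermaphrodites. Of the 135 coding genes 81 were tested, and 33 were higher and 16 lower in fasted males and 37 higher and 23 lower in fed males. With fasting, 11 coding genes were higher and 6 lower in males, and 2 higher and 5 lower in hermaphrodites. The shares of all probe sets given above (38.0% and 32.7% higher and lower in fasted males, 38.9% and 35.9% in fed males) are the background of these sex counts. For the fasting counts the background is 19% higher and 8.31% lower in males, and 5.72% higher and 5.69% lower in hermaphrodites. Under median centring the coding genes had 16 higher and 30 lower in fasted males, 22 and 29 in fed males, and 5 and 8 for fasting in males. The pseudogenes had 4 higher and 6 lower in fasted males, 3 and 8 in fed males, and 2 higher for fasting in males. A signal on a pseudogene's probe set may come from the pseudogene's own transcript or from that of a similar gene, and which one was not tested.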

How the data were processed

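RNA of whole worms was measured on 12 Affymetrix C. elegans arrays, 1 per sample, 3 per group. The deposited values are log2 signals made with MAS5 by the authors, per the submitters' processing notes, and its version was not stated. The 2% trimmed mean of the signal was 500.1 to 500.2 on all arrays, and 1171 values were exactly 0. No detection calls entered the analysis. Of 22625 probe sets, 77 controls were left out, and 15913 passed the filter. Genes were named from the array's annotation table, with symbols, chromosomes and the order of genes from the RefSeq gene table of WBcel235. A gene was taken from its brightest probe set, by the mean of all arrays (4 members had more than 1), and 16 probe sets that name an F-box A gene among several were left out. The members and lists were chosen with earlier results of these data known.

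Group means were fitted over all 12 arrays in R 4.3.3 by limma 3.58.1, with lmFit and a trended eBayes prior. Residual and prior degrees of freedom together were 12.2. Tests were two-sided, with p adjusted by Benjamini and Hochberg within each of 5 comparisons. The number of arrays limits the precision, and arrays of 1 group correlated at r = 0.957 to 0.975. The fit was tested on simulated data. Genes were named by rule: the 10 called members with the largest change per comparison and direction, the 10 with the highest mean, the 3 with the smallest and the 3 with the largest range of group means, fbxa-158, fbxa-75, and the relatives and partners. The text prints fewer of them. mfb-1 was named after its values were seen.

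The labels give 3 independent experiments with 1 sample of each group, and do not say that a replicate number marks an experiment. Deviations of same-numbered arrays from their group means correlated at r = 0.157, 0.119 and 0.274 between fasted and fed males. Between fasted and fed hermaphrodites r was 0.189, 0.129 and 0.259. All of these lay above 0.1, so the numbers may pair the arrays in the fasting comparisons. The calls and adjusted p given for single genes come from a fit without that pairing. The replicate number entered only as a block in an alternative fit. Between males and hermaphrodites r was 0.133, 0.0525 and 0.197 in fasted and 0.0817, 0.0802 and 0.204 in fed worms. Alternatives were quantile normalization, median centring, pseudocounts of 64.6 and 20.1 (the 40th and 20th percentiles of the signal), no filter, a filter at the 60th percentile, no trend, only the arrays compared, a replicate block, and leaving out each array. After the data were seen, counts without probe sets of the _s_at and _x_at types and counts without pseudogenes were added. Figures were drawn with matplotlib 3.10.9 in Python 3.11.15.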

Additional observations from a re-analysis of the deposited data

Results flagged for a closer look

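In 3 F-box A genes the change with fasting differed between the sexes by the interaction term of limma, with the difference given as the male change minus the hermaphrodite change. For fbxa-24 the difference was 1.77 ± 0.45 (SE; adjusted p = 0.0438), for fbxa-60 it was 0.99 ± 0.24 (SE; adjusted p = 0.0337), and for fbxa-163 it was -0.99 ± 0.25 (SE; adjusted p = 0.0388). All 3 calls were lost in the fit with no trend in the variance (adjusted p = 0.0604 for fbxa-24, 0.0635 for fbxa-60 and 0.0651 for fbxa-163), and those of fbxa-24 and fbxa-60 after median centring (0.0675 and 0.0691).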

How the results depend on the processing

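Counts of called F-box A genes moved by over 1.5 times in several fits, and beyond the smaller number tested in stricter filters the cause was not tested. For fasting in hermaphrodites the count of 9 became 3 after quantile normalization and 3 with only the arrays compared. A filter at the 60th percentile, which tests 42 members, gave 12 for fasting in males, 34 for sex in fasted and 36 for sex in fed worms. For the difference between the sexes the 3 calls became 1 with median centring, 0 with no trend (15 at an unadjusted p under 0.05), and 1 without _s_at and _x_at probe sets. Over all probe sets, calls in that comparison numbered 840, and 463 with median centring. Leaving out each array gave 11 to 21 calls for fasting in males (11 without fed male replicate 2), 3 to 7 for fasting in hermaphrodites (3 without fasted hermaphrodite replicate 3), 0 to 4 for the difference, 55 to 61 for sex in fasted and 62 to 73 for sex in fed worms. The difference had 0 calls without fasted hermaphrodite replicate 2 or 3, fed hermaphrodite replicate 1 or 2, or fed male replicate 1, and over all probe sets as few as 428. With the replicate block the counts were 24 for fasting in males, 11 for fasting in hermaphrodites, 5 for the difference (1641 over all probe sets), 64 for sex in fasted and 73 for sex in fed worms. Kept under every alternative that tested the gene were 9 of 21 calls for fasting in males and 2 of 9 in hermaphrodites. For the difference this was 0 of 3, for sex in fasted worms 37 of 60, and for sex in fed worms 49 of 72. The filter at the 60th percentile tested only 42 members, and a gene it left out could still count as kept. Directions turned for fbxa-150, whose other probe set gave -1.03 in fasted and -0.27 in fed worms, for fbxa-19 in fasted worms (-0.037 with quantile normalization, -0.003 with median centring), and for fbxa-128 in fasted worms (-0.036 with median centring). Many members lie near the low end of the signal, which limits how far their fold changes can be read.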

Other observations

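Probe sets that name an F-box A gene together with another gene belong in no comparison of single genes, and 5 of 16 such probe sets passed the filter. The probe set of fbxa-92 and fbxa-91 was higher in males by 1.18 in fasted and 1.36 in fed worms. That of fbxa-208 and fbxa-77 was higher in males by 0.81 in fasted and 1.62 in fed worms, and changed by -0.83 in fasted males (adjusted p = 0.00218). The probe set of fbxa-151 and fbxa-78 was higher in fed males by 1.17 and changed by -0.72 in fasted males (adjusted p = 0.0184). That of fbxa-180 and C18D4.8 changed by 1.09 in fasted males (adjusted p = 0.0108) and by 1.48 in fasted hermaphrodites (adjusted p = 0.00327). The probe set shared by fbxa-157 and fbxa-156 was higher in males by 2.19 in fasted and 1.73 in fed worms, and changed by -0.63 in fasted hermaphrodites (adjusted p = 0.0145).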
